A study of Mus musculus with 2 samples.

Results

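The genes described here are 41 members of glycolysis and of the cellular response to low oxygen: glucose transporters, the enzymes of each glycolytic step with their isoforms, lactate transporters, the enzymes that set fructose 2,6-bisphosphate, the pyruvate dehydrogenase kinases, and the subunits and regulators of the hypoxia-inducible factor (HIF). They were chosen by name from 21938 protein-coding genes of GENCODE release M21, and all 41 symbols matched a gene. H3K4me3, the trimethylated form of lysine 4 of histone H3 that sits at promoters in use or held ready, had been mapped by chromatin immunoprecipitation and sequencing in macrophages grown from the bone marrow of C57BL/6J mice and given no stimulus. The only group held 2 biological replicates, each begun from 10 ng of DNA, which per the labels are distinct preparations of cells that share a donor entry, with sex and age not recorded. There was no other condition, so no test between conditions could be made, and the spread between the replicates may be partly technical. The deposited lists give peaks and no read counts, so the depth behind each value is unknown.

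Glycolysis converts glucose to pyruvate in the cytosol, and most of its steps have several isoforms encoded by separate genes, some found in most cells and others known chiefly from muscle, liver, brain, heart or red cells. Under low oxygen, HIF prolyl hydroxylases stop marking the HIF alpha subunits for destruction by the VHL ubiquitin ligase, and the alpha subunit then pairs with ARNT and binds promoters of many glycolytic genes. Macrophages depend on this pathway when they are activated, and HIF1A is required for much of their glycolytic and inflammatory response. Following that textbook knowledge, 23 members were classed as isoforms of most cells and leukocytes, 11 as isoforms known chiefly from other tissues, and 7 as HIF subunits and regulators.

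Marked genes were those with a peak within 1 kb of any annotated transcript start in the list of replicate 1 and in that of replicate 2. By that rule 38 of the 41 members were marked in both replicates, 0 in 1 replicate only, and 3 in neither, against 49.5% of all protein-coding genes marked in both. The 3 members without a peak were Pgam2, the phosphoglycerate mutase of muscle, Pklr, the pyruvate kinase of liver and red cells, and Pdk4, a pyruvate dehydrogenase kinase known from muscle and from fasting. All 23 isoforms of most cells and leukocytes and all 7 HIF genes were marked, and 8 of the 11 isoforms of other tissues. The cells carried the mark at 10 of 10 macrophage marker genes and at 0 of 4 T cell, 0 of 3 B cell, 0 of 4 neutrophil, 0 of 3 fibroblast and 0 of 2 endothelial markers.

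The unmarked isoforms and marked isoforms of the same enzyme differ in the CpG content of the promoter. The sequences below are the 250 bases before the most upstream annotated start of each gene, 5′ to 3′ on the gene's strand, in GRCm38.p6, with every CG dinucleotide in capitals. They pair each of the 3 unmarked members with a marked isoform of the same enzyme: Pgam1 (chr19:41911621-41911870, plus strand) with Pgam2 (chr11:5803797-5804046, minus strand), Pkm (chr9:59656118-59656367, plus strand) with Pklr (chr3:89135892-89136141, plus strand), and Pdk1 (chr2:71872974-71873223, plus strand) with Pdk4 (chr6:5496310-5496559, minus strand). All of these windows lie upstream of the gene and hold 0 bases of GENCODE exons.
Pgam1: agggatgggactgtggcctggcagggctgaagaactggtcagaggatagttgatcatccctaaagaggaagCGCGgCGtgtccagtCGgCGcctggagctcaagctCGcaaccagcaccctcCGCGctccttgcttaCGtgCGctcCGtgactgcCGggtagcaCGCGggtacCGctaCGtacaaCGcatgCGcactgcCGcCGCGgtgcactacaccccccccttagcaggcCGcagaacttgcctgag
Pgam2: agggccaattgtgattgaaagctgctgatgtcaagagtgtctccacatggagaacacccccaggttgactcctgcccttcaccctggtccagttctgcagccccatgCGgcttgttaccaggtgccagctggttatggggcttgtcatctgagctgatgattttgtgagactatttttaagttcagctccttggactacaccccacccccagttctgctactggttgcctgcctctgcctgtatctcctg
Pkm: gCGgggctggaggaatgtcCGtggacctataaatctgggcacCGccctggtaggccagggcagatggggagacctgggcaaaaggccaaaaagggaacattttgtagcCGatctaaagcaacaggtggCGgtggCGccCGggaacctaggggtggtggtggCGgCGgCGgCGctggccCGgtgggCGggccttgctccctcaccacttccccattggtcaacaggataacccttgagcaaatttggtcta
Pklr: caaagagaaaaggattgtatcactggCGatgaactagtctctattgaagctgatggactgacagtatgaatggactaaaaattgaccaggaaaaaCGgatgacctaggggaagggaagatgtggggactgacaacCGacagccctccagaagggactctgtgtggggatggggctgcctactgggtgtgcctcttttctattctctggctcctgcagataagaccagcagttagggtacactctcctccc
Pdk1: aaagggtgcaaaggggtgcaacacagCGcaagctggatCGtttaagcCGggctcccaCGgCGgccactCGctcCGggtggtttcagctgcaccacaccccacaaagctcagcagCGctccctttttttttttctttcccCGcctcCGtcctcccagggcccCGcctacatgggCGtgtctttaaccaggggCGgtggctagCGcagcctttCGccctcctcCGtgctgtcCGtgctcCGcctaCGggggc
Pdk4: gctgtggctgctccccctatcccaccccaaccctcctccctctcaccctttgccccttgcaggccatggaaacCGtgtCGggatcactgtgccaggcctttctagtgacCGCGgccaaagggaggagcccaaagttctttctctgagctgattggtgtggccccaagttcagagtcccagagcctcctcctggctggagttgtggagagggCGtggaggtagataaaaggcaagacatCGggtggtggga

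The mutase windows differed most, with 22 CG dinucleotides at Pgam1 and 1 at Pgam2. The Pkm window held 13 and the Pklr window 3, and Pdk1 had 19 against 6 at Pdk4. Over 500 bp either side of the 5′ end, the ratio of observed to expected CpG was 0.327 at Pgam2, 0.164 at Pklr and 0.533 at Pdk4. The medians were 0.552 over all protein-coding genes and 0.735 over those marked, so Pdk4 lay near the overall median and the other unmarked members well below it. The ratio does not separate marked from unmarked members. Marked Aldoa, Gapdh and Aldoc had 0.259, 0.286 and 0.228, below Pgam2.

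A second set of windows shows the letters that the HIF dimer is known to bind. The core of the hypoxia response element is ACGTG or GCGTG, and matches on either strand are in capitals. ACGTG lies within the E-box CACGTG, a palindrome that reads as a match on both strands. Shown are Pgk1 (chrX:106186850-106187099, plus strand), Ldha at its marked start (chr7:46845554-46845803, plus strand) and Pfkfb3 at the more downstream of its 2 marked start groups (chr2:11502102-11502351, minus strand), again as the 250 bases before the start in GRCm38.p6.
Pgk1: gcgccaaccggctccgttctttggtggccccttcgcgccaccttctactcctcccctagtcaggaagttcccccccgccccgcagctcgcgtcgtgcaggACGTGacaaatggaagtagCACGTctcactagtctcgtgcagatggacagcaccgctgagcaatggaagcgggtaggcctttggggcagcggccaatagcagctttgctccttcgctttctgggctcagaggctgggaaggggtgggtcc
Ldha: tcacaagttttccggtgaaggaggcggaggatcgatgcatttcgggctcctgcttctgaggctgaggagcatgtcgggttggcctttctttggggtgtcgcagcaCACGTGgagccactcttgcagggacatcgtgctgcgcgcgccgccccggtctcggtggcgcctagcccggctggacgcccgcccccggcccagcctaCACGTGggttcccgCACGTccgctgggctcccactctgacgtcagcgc
Pfkfb3: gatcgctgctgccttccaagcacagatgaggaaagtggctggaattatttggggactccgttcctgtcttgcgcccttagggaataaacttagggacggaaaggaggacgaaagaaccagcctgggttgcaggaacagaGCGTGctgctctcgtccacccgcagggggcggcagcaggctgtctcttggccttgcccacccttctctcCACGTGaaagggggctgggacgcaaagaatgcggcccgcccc

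The Pgk1 window held 2 ACGTG cores, at positions -150 and -131 from the start. In the Ldha window there were 5 matches, 4 of them from 2 copies of CACGTG, and the Pfkfb3 window had 3 matches, 2 of them from 1 CACGTG. In the RefSeq promoter table (GRCm38.p6, 250 bases before to 50 after a start), 39 members had an entry, Slc2a3 and Epas1 having none, and 33 of them, 84.6%, held a core in at least 1 entry. The share was 69.5% among marked protein-coding genes and 53.5% among all with an entry. Members have more entries per gene than marked genes do. Counted by entry, the shares were 73.3% for the 60 entries of members, 63.4% for entries of marked genes and 43.8% for all 32851 entries. Those 32851 were not limited to protein-coding genes, unlike the shares by gene. For ACGTG alone the shares by entry were 43.3%, 26.2% and 19.6%. Counted over 500 bp either side of the 5′ end, 37 of 41 members, 90.2%, held a core, against 91.9% of marked genes. This wider window showed no excess over marked genes, but their share left little room for any. It is centred on the 5′ end even where the marked start lies elsewhere, as at Hk1, Ldha and Hif1a. These matches describe letters and not binding.

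Marked members carried wide domains of middling height. A domain joins peaks within 1 kb of each other, and its width is that of the widest domain touching a promoter window. The median width of the 38 marked members was 2917 bp in replicate 1 and 2091 bp in replicate 2, and the median of the mean widths was 2525.8 bp, against 1946.5 bp for all 10869 marked genes. Of the 38, 29 were wider than that overall median. Another coding gene's start lay in the window of 5, Aldoa, Pfkm, Pfkfb1, Pfkfb2 and Hif1a, against 25.1% of marked genes. At the first 4 the start of the other gene also lay in the domain, which cannot be assigned to 1 gene, and the domain of Hif1a held no other coding start. Height was ranked as the percentile of a gene's top fold among the marked genes of the same list, the fold being the authors' value for each peak. The members' median percentile was 50.7, with a range from 0.9 to 93.7.

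**Figure D1:**
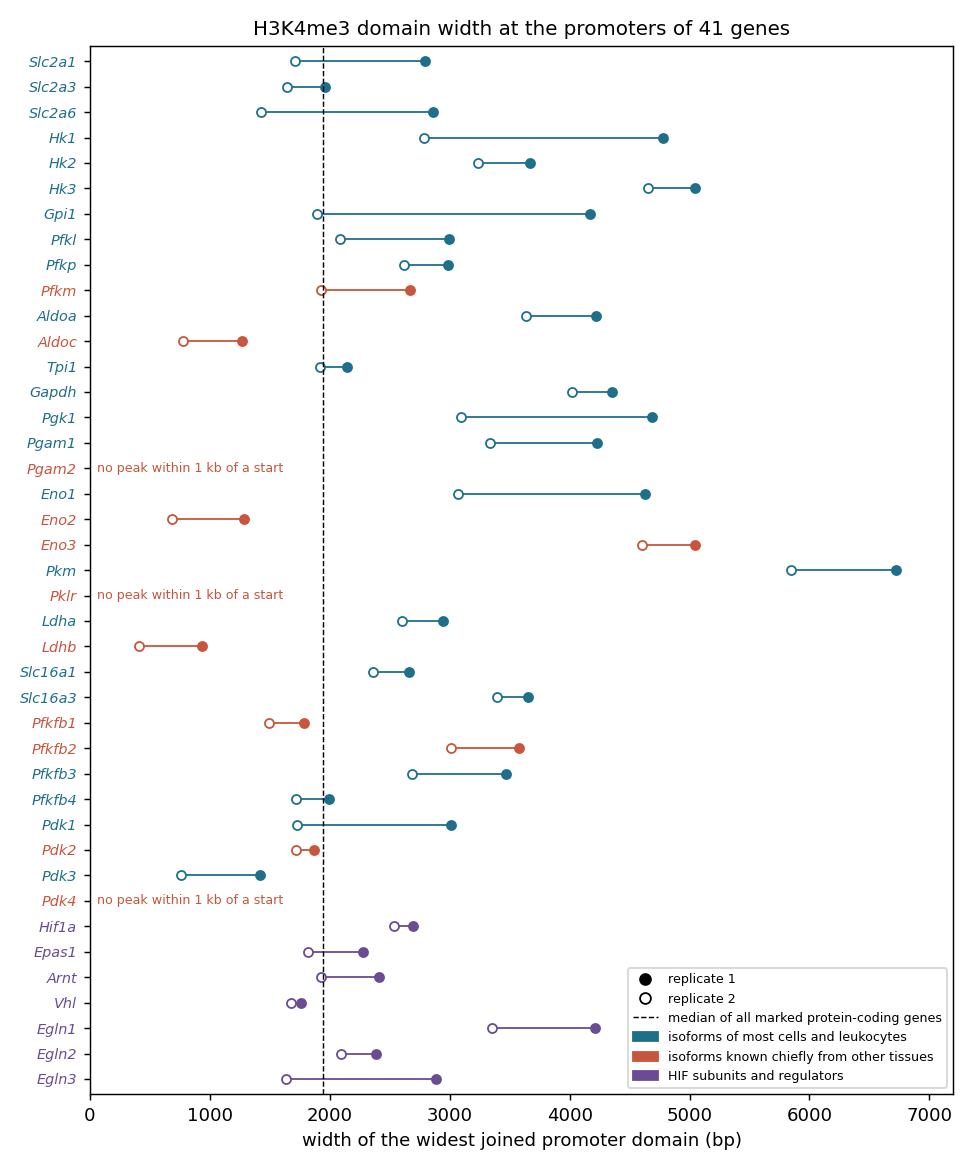
Width in bp (x axis) of the widest H3K4me3 domain at each of the 41 genes (y axis, by step of the pathway) in replicate 1 (filled) and replicate 2 (open), with a dashed line at the median mean width of all marked protein-coding genes, 1946.5 bp. Pkm is the widest in both replicates, and Ldhb the narrowest in replicate 1 at 934 bp and in replicate 2 at 409 bp.

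All 38 marked members were wider in replicate 1, by 1.05 to 2.28 times, with a median ratio of 1.22. The ratio over all marked genes was 1.19. Top folds were also higher in replicate 1 at all 38, where the median fold of the whole list was 21.7 against 10.7 in replicate 2. Ranks moved less: a member's percentile differed between the replicates by a median of 3.8, and by at most 23.7, at Eno1.

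Glucose entry was marked at all 3 transporter genes, at differing heights. Slc2a1, which encodes the widespread transporter GLUT1, had a domain of 2798 bp in replicate 1 and 1707 bp in replicate 2 and top folds of 41.9 and 15.7. Slc2a3, the gene of the high-affinity transporter GLUT3, had 1959 and 1648 bp with folds of 17.4 and 6.00, a mean percentile of 9.1. Slc2a6 encodes GLUT6, a transporter of lysosomal membranes, and reached 2862 and 1426 bp with folds of 26.7 and 10.1. Slc2a3 was thus the lowest of the transporters in height in both lists. Of the transporters of other tissues that are not among the 41, Slc2a2 of liver and Slc2a5, the fructose transporter, had no peak, and Slc2a4 of muscle and fat had 1 of 621 bp and fold 4.11 in replicate 1 only.

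The hexokinase genes, whose products trap glucose as glucose 6-phosphate, formed a broad group. Hk3, the hexokinase of myeloid cells, carried the second widest domain of all members, 5045 bp in replicate 1 (chr13:55018202-55023246) and 4653 bp in replicate 2, a mean of 4849 ± 277.2 bp (SD, n = 2). Without joining its mean width was 3148.5 bp, less than at Pkm, Gapdh, Pgk1 and Pgam1. Its top folds were 36.4 and 13.7, a mean percentile of 43.4. Hk2, the inducible isoform, was narrower and higher, with 3674 and 3235 bp and folds of 56.0 and 21.0, a mean percentile of 88.4. Hk1, the isoform of most tissues, had 4776 and 2789 bp and folds of 43.2 and 17.9. Hkdc1, a further hexokinase gene outside the 41, had no peak.

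In the upper steps, Gpi1, the glucose 6-phosphate isomerase gene, had folds of 50.8 and 20.4 and a domain of 4169 bp in replicate 1 that measured 1891 bp in replicate 2. The 3 phosphofructokinase genes were all marked. Pfkp stood highest of them, with folds of 48.8 and 21.7, while Pfkl, the liver-type subunit that is abundant in leukocytes, had 34.2 and 14.6. Pfkm, the muscle subunit, had 38.4 and 17.3, above Pfkl in both lists. Its peak lay over the start of Senp1, a SUMO protease gene transcribed the other way, so it cannot be assigned to Pfkm alone. A start of Pfkm 15877 bp further in, away from Senp1, was also marked in both replicates, with folds of 32.1 and 11.4.

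Aldolase separated by isoform. Aldoa, the fructose bisphosphate aldolase of muscle and most other cells, had domains of 4219 and 3638 bp, a mean of 3928.5 ± 410.8 bp (SD, n = 2), and folds of 46.1 and 17.1. Its window also holds the start of Fam57b, and a second gene model with the same symbol just upstream had 1789 and 1345 bp. Aldoc, the brain isoform, had 1272 and 774 bp and folds of 13.6 and 3.88, a mean percentile of 4.0. Both measures of Aldoa lay above those of Aldoc in each replicate.

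The lower steps held the widest domain. Gapdh had 4354 and 4021 bp, a mean of 4187.5 ± 235.5 bp (SD, n = 2), with folds of 40.9 and 14.0, a mean percentile of 50.2. Tpi1, the triose phosphate isomerase gene, had 2147 and 1915 bp and folds of 45.0 and 18.4. Pgk1, which encodes the first ATP-forming kinase of the pathway, had 4689 and 3092 bp with folds of 40.2 and 14.2. Tpi1 was the narrowest of the 3 at this joining distance. With peaks joined within 3000 bp its mean width was 9725.5 bp, against 4187.5 bp at Gapdh and 3890.5 bp at Pgk1. That width exceeds the length of the gene (chr6:124810586-124814296), so it does not describe the Tpi1 promoter alone. In replicate 1 a peak of fold 56.6 touched the gene over 1 kb from any Tpi1 start. The testis genes Gapdhs and Pgk2 had no peak.

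The mutase genes, whose promoter sequences are shown above, divided into a marked and an unmarked isoform. Pgam1, the mutase of most tissues, had domains of 4225 and 3335 bp and folds of 56.6 and 19.8, a mean percentile of 86.2. Pgam2 had no peak in either replicate, and the nearest peak lay 13576 bp from its start in replicate 1 and 13880 bp in replicate 2. It was also without a peak in the authors' deposited pooled and replicated lists. The same held for Pklr, whose nearest peaks lay 27195 and 27514 bp away, and for Pdk4, with 105590 and 198013 bp. None of the 3 genes had a peak anywhere in its body.

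Among the enolases, which form phosphoenolpyruvate, Eno1 of most tissues had 4630 and 3073 bp and folds of 58.5 and 18.5. Eno2, the neuronal isoform, had 1287 and 686 bp and folds of 15.5 and 5.61, a mean percentile of 7.5. Eno3, the muscle isoform, was assigned the third widest domain, 5042 and 4600 bp (mean 4821 ± 312.5 bp, SD, n = 2), with folds of only 21.3 and 5.48 near its starts. That domain belongs to the neighbourhood of Pfn1, the profilin gene, whose start it holds, and it ended 419 bp before the first Eno3 start in replicate 1 and 594 bp before it in replicate 2. No Eno3 start lay within a peak, so the width does not describe an Eno3 promoter.

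Pkm encodes the pyruvate kinases M1 and M2 by alternative splicing, M2 being the form that macrophages raise on activation. Its domain was the widest of the members, 6723 bp in replicate 1 (chr9:59654867-59661589) and 5847 bp in replicate 2 (chr9:59655241-59661087), a mean of 6285 ± 619.4 bp (SD, n = 2). It was also the widest without joining, at 4275 bp, but not with peaks joined within 3000 bp, where Tpi1 reached 9725.5 bp and Eno3 7718.5 bp. Top folds were 53.8 and 22.1, a mean percentile of 88.9. The main part ran from 95 bp to 5221 bp downstream of the main start in replicate 1 and from 159 bp to 3581 bp in replicate 2, with a separate peak upstream in each. Mean widths of at least 4000 bp were found at 4 of the 38 marked members, namely Pkm, Hk3, Eno3 and Gapdh, against 4.69% of all marked genes, and the domain counted for Eno3 is the one that holds the Pfn1 start.

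**Figure D2:**
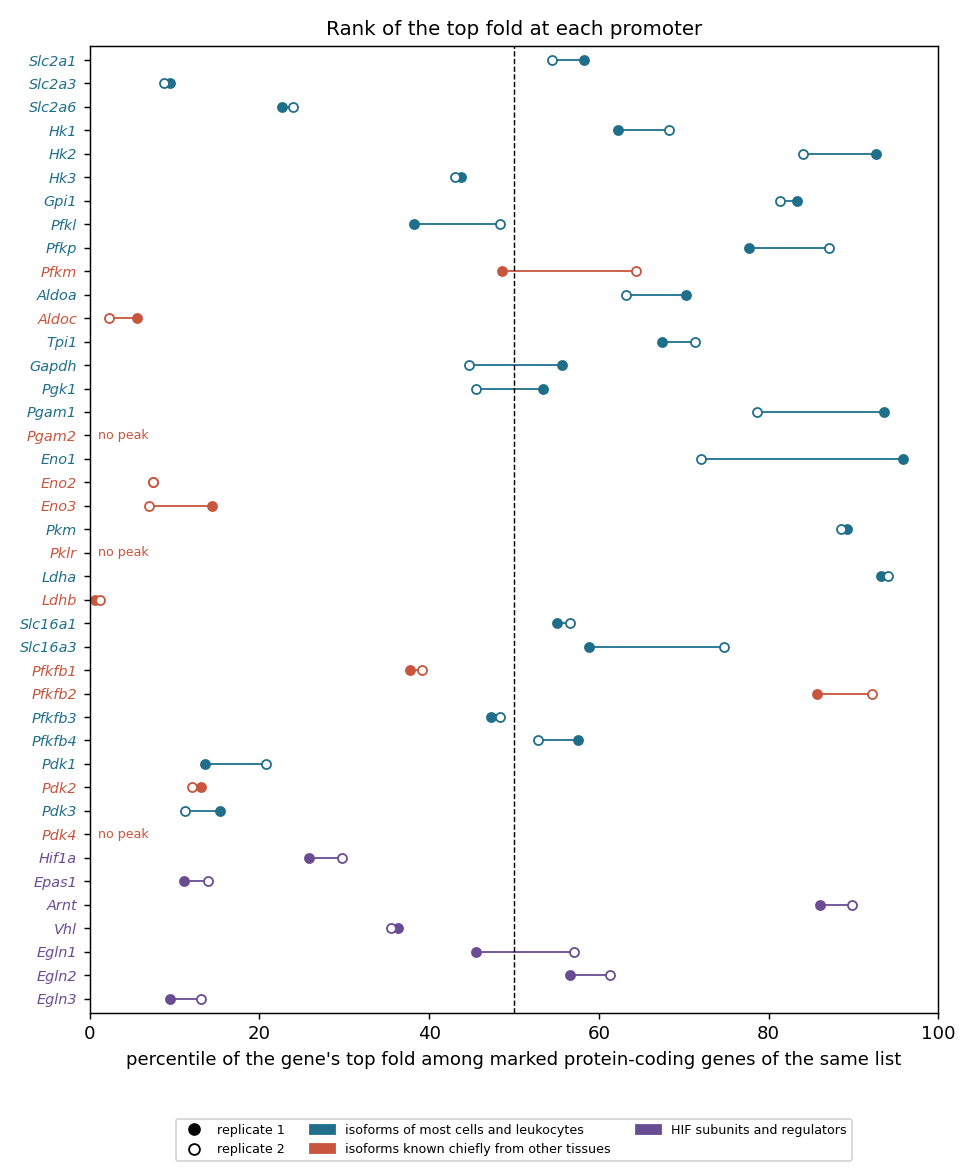
Percentile of the top fold (x axis, 0 to 100) of each gene (y axis) among all marked protein-coding genes of the same list, for replicate 1 (filled) and replicate 2 (open), coloured by class. Ldha has the highest mean percentile, 93.7, and Ldhb the lowest, 0.9, and the 3 genes without a peak are written as such.

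Lactate production and export carried the highest and the lowest member. Ldha, the lactate dehydrogenase subunit that favours lactate formation, had domains of 2947 and 2600 bp and top folds of 56.4 and 24.0, a mean percentile of 93.7. Ldhb, the heart subunit, had 934 and 409 bp and folds of 7.29 and 3.39, a mean percentile of 0.9. It was marked in both replicates but lay at the bottom of each list. The monocarboxylate transporter genes Slc16a1 and Slc16a3, of which the latter exports lactate from glycolytic cells, had top folds of 40.9 and 42.0 in replicate 1 and 15.9 and 19.1 in replicate 2. Slc16a3 was the wider, at 3656 and 3397 bp against 2657 and 2364 bp. Of the isoforms outside the 41, Ldhc and Ldhal6b had no peak and neither did Slc16a8, whereas Slc16a7, a transporter of higher affinity, was marked with 2318 and 1600 bp.

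The bifunctional enzymes of the Pfkfb family make and remove fructose 2,6-bisphosphate, the main activator of phosphofructokinase. Pfkfb3, the inducible isoform with high kinase activity, had 3466 and 2690 bp and folds of 37.9 and 14.6. Pfkfb4 had 1992 and 1719 bp and folds of 41.7 and 15.4. Pfkfb2 of heart stood higher than both, with 3582 and 3015 bp and folds of 51.9 and 23.2, a mean percentile of 88.9. Its peak, however, lay over the starts of Yod1, a deubiquitinase gene, and Gm29427, as well as over some starts of Pfkfb2 itself. Pfkfb1 of liver and muscle had 1787 and 1496 bp and folds of 34.0 and 13.1 at a start it shares with Apex2, a DNA repair nuclease gene. Neither signal can be assigned to the Pfkfb gene alone.

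Pyruvate dehydrogenase kinases inhibit the pyruvate dehydrogenase complex, and the promoters of the family ranked low. Pdk1, a known HIF target, had 3009 and 1725 bp and folds of 20.7 and 9.27. Pdk2 had 1873 and 1719 bp with folds of 20.4 and 7.05, and Pdk3 had 1418 and 756 bp with folds of 21.9 and 6.79. Their mean percentiles lay between 12.6 and 17.2, and Pdk4 had no peak. All 10 genes of pyruvate entry and the dehydrogenase complex were marked, against 49.5% of all protein-coding genes. Their median percentile was 63.2. The widest of these were Mpc2 (3202.5 ± 55.9 bp, SD, n = 2; its window also holds the Dcaf6 start), Mpc1 (2812.5 ± 79.9 bp, n = 2) and Pdha1 (2486 ± 598.2 bp, n = 2). Mpc1 and Mpc2 encode the mitochondrial pyruvate carrier and Pdha1 a subunit of the dehydrogenase.

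Across classes, isoforms of most cells and leukocytes had a median mean width of 3030 bp and a median percentile of 56.3. The 8 marked isoforms of other tissues had 1718.8 bp and 11.7. Among these 8, the domains counted for Pfkm, Pfkfb1, Pfkfb2 and Eno3 hold another gene's coding start, as does that of Aldoa in the first class. Of 8 enzyme families with isoforms of both kinds, 6 had a marked isoform of other tissues. In 3 of the 6, the phosphofructokinases, aldolases and lactate dehydrogenases, every isoform of most cells was wider in both replicates than every isoform of other tissues. Top folds were ordered that way in 3, the aldolases, enolases and lactate dehydrogenases. The mutases and pyruvate kinases had no peak at the isoform of other tissues, so there was no width or fold to compare. Marked isoforms of other tissues were also divided by whether another gene's coding start lay in the window. The 3 with another gene's coding start in the window, Pfkm, Pfkfb1 and Pfkfb2, had mean percentiles of 38.5 or more, and the 5 without, Aldoc, Eno2, Eno3, Ldhb and Pdk2, had 12.6 or less. This division was made after the values were seen, and it is not clean. Eno3 counts among those without, although its domain holds the Pfn1 start. Pfkm was also marked at a start away from Senp1, with folds of 32.1 and 11.4. Of the 12 isoforms of other tissues outside the 41, 1 was marked in both replicates, against 49.5% of all protein-coding genes.

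The HIF genes were marked at very different heights. Hif1a, the oxygen-regulated subunit that macrophages use on activation, had 2693 and 2537 bp and folds of 28.4 and 11.2, a mean percentile of 27.7. Epas1, which encodes HIF2A, had 2279 and 1820 bp and folds of 18.7 and 7.57, a mean percentile of 12.5. Arnt, the constant partner of both, had 2409 and 1931 bp and folds of 52.1 and 22.5, a mean percentile of 88.0. The partner gene thus ranked above both alpha subunit genes in each list.

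Of the genes that destroy HIF alpha subunits, Vhl had folds of 33.4 and 12.4. The prolyl hydroxylase genes Egln1 and Egln2 had 37.2 and 41.3 in replicate 1 and 16.1 and 16.7 in replicate 2, and Egln3, itself induced by HIF, had 17.4 and 7.31. Egln1 had the widest domain of the HIF genes, 4213 and 3353 bp, with its peaks joined across a gap. Without joining its mean width was 1864 bp, below Egln3 at 2262.5 bp and Arnt at 2170 bp. The fixed list of other HIF regulators was marked at 8 of 10 genes, without Arnt2 and Hif3a, against 49.5% of all protein-coding genes. Its widest domains were those of Cited2 (4531.5 ± 385.4 bp, SD, n = 2), a competitor of HIF for the coactivators CBP and p300, Ep300 (3853.5 ± 99.7 bp, n = 2) and Rbx1 (2263 ± 175.4 bp, n = 2), a subunit of the VHL ligase.

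Among 25 HIF target genes outside glycolysis, 18 were marked in both replicates, 72.0%, against 49.5% of all protein-coding genes. Adm, Ak4 and Car12 were marked in replicate 1 only, with top folds of 5.79, 4.86 and 5.42. The other 4 had no peak, among them Lox and Nos2, the inducible nitric oxide synthase gene of activated macrophages. The widest were Mxi1 (4244.5 ± 427.8 bp, SD, n = 2), a MAX partner, Bhlhe40 (4069.5 ± 526.8 bp, n = 2), a transcriptional repressor, and Vegfa (3901.5 ± 867.6 bp, n = 2), the vascular growth factor. The median percentile of the 18 was 39.1.

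Genes of gluconeogenesis and of the branches from glycolysis were marked at 8 of 12, against 49.5% of all protein-coding genes. The other 4 had no peak, among them Fbp1, Fbp2 and G6pc, which encode enzymes of glucose formation in liver, muscle and kidney. The widest were G6pdx (3552.5 ± 638.5 bp, SD, n = 2), the entry to the pentose phosphate pathway, Gys1 (2992 ± 43.8 bp, n = 2), the glycogen synthase of most tissues, and Pgd (2944.5 ± 193.0 bp, n = 2), also of the pentose phosphate pathway. The windows of G6pdx and Gys1 also hold the starts of Ikbkg and Ruvbl2.

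Genes with several starts carried the mark at some of them. Starts within 1 kb of each other were grouped, and 31 of the 38 marked members had at least 2 groups, against 68.2% of all marked genes. Of the 31, 12 had at least 2 groups marked in both replicates, against 20% of marked genes with at least 2 groups. Both counts include neighbouring groups reached by the same peak or domain. At Tpi1 both groups had the same top folds, 45.0 and 18.4, and at Gapdh 40.9 and 14.0. Only Pfkfb3 and Pfkm had 2 separate domains in both replicates, so the count largely follows domain width and does not number separate promoters. Hk1 was the extreme case, with 9 groups over 89579 bp. Only the start 39366 bp downstream of the gene's 5′ end was marked in both, with folds of 43.2 and 17.9, and another at 52141 bp had a peak of fold 4.30 in replicate 1 only. The 5′-most group and the next, from which 4 and 7 coding transcripts begin, had none. Transcripts of Hk1 from alternative starts are known from male germ cells.

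**Figure D3:**
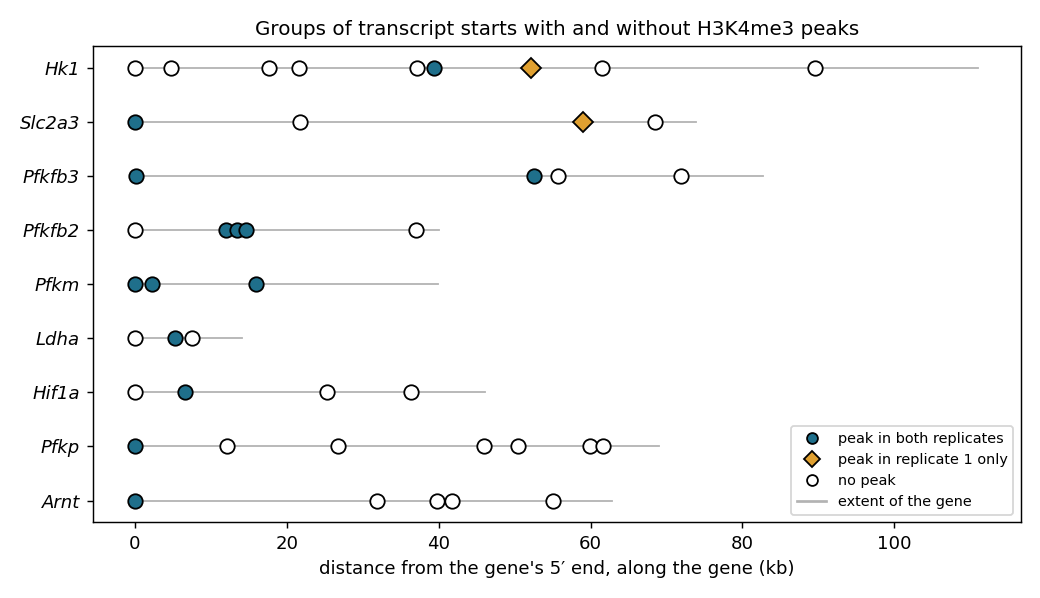
Groups of annotated transcript starts (circles and diamonds) along 9 genes by distance from the 5′ end in kb (x axis), filled where both replicates had a peak, a diamond where only replicate 1 had. At Hk1, 1 of 9 groups is marked in both replicates, and at Pfkfb3 there are 2 of 4.

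Ldha and Hif1a were likewise unmarked at their 5′-most start. Ldha was marked over the group from 4364 to 6121 bp, where 13 of its transcripts begin, and Hif1a at the start 6529 bp downstream. At Slc2a3 the pattern was the opposite: the far upstream start had the peak in both replicates, and the group from 58720 to 59378 bp, with 5 starts, had a peak of fold 8.03 in replicate 1 only. Pfkfb3 used a pair of groups, at its 5′ end (folds of 37.4 and 13.3) and 51976 to 53214 bp downstream (37.9 and 14.6). Pfkp and Arnt were marked at the 5′ end alone, of 7 and 5 groups. The CpG ratio was higher around the marked start at Hk1, Ldha and Hif1a. It was 0.109, 0.264 and 0.326 around the 5′ end and 0.554, 0.763 and 0.875 around the marked coding start. Pfkfb2, also unmarked at its 5′-most start, stayed low, with 0.164 and 0.231. Where the 5′ end was marked too, the ratio fell from 0.363 to 0.289 at Hk3 and from 0.737 to 0.636 at Pfkfb3.

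**Figure D4:**
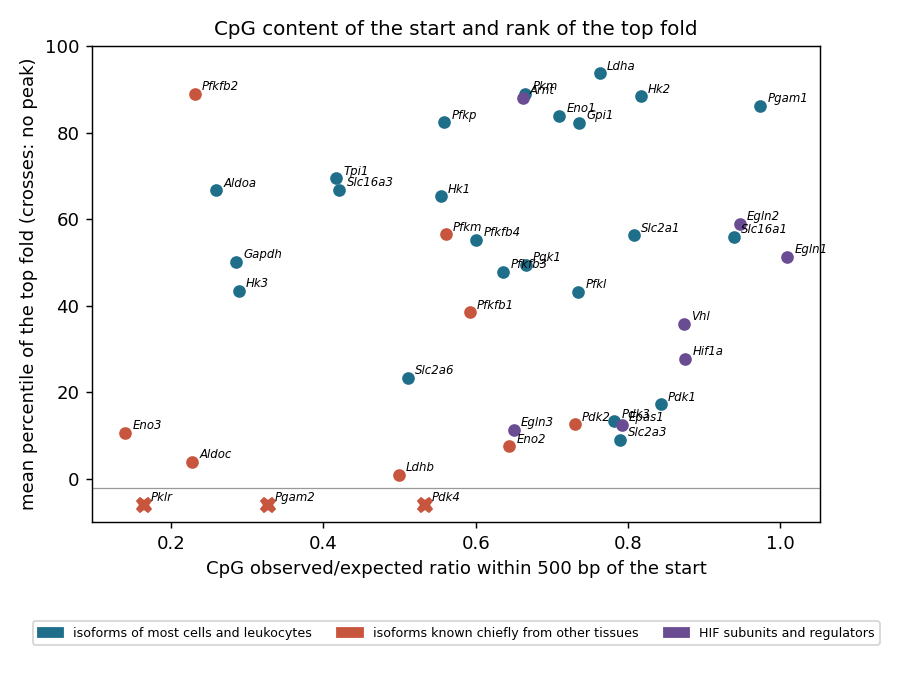
Ratio of observed to expected CpG within 500 bp of the main coding start (x axis) and mean percentile of the top fold (y axis) of the 38 marked members, with the 3 unmarked members as crosses below the line at the ratio of their 5′ end. Genes of a high ratio are found at every height, and Aldoa, Gapdh and Hk3 have ratios of 0.259, 0.286 and 0.289. The start plotted for Aldoa lies upstream of its domain.

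CpG content did not order the marked members by height in the plot of the 2 measures. Pdk1, Pdk3, Epas1 and Slc2a3 had ratios of 0.843, 0.782, 0.792 and 0.79 and mean percentiles of 17.2 or less, whereas Aldoa, at 0.259, ranked at 66.7. The Aldoa ratio depends on the start, as the domain began 119 bp downstream of the main coding start in replicate 1 and 229 bp in replicate 2. At the RefSeq starts of Aldoa, all within the domain, the ratio over 300 bases was 0, 0.751 and 0.714. The median ratio at the main coding start was 0.663 for members and 0.747 for all marked genes. It was 0.666 for isoforms of most cells, 0.53 for the marked isoforms of other tissues and 0.873 for the HIF genes.

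The main coding start was the position within 1 kb of a peak in both replicates from which most coding transcripts begin. Where several positions tied, as at genes with 1 transcript per start, the most upstream was taken, which favours summits downstream of it. The same rule was used for all marked genes. Relative to it the strongest summit of the widest domain lay downstream in both replicates at 33 of 38 members, against 77.5% of marked genes, with median positions of 430.5 bp in replicate 1 and 488.5 bp in replicate 2. At 8 of the 38 the start itself lay in a gap between peaks of the same domain in both replicates, against 13.8% of marked genes. These were Pkm, Slc16a1, Pfkfb4, Pdk1, Pdk2, Hif1a, Egln1 and Egln2. At Egln1 the gap ran from 265 bp upstream to 642 bp downstream in replicate 1 and from 270 bp upstream to 706 bp downstream in replicate 2.

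**Figure D5:**
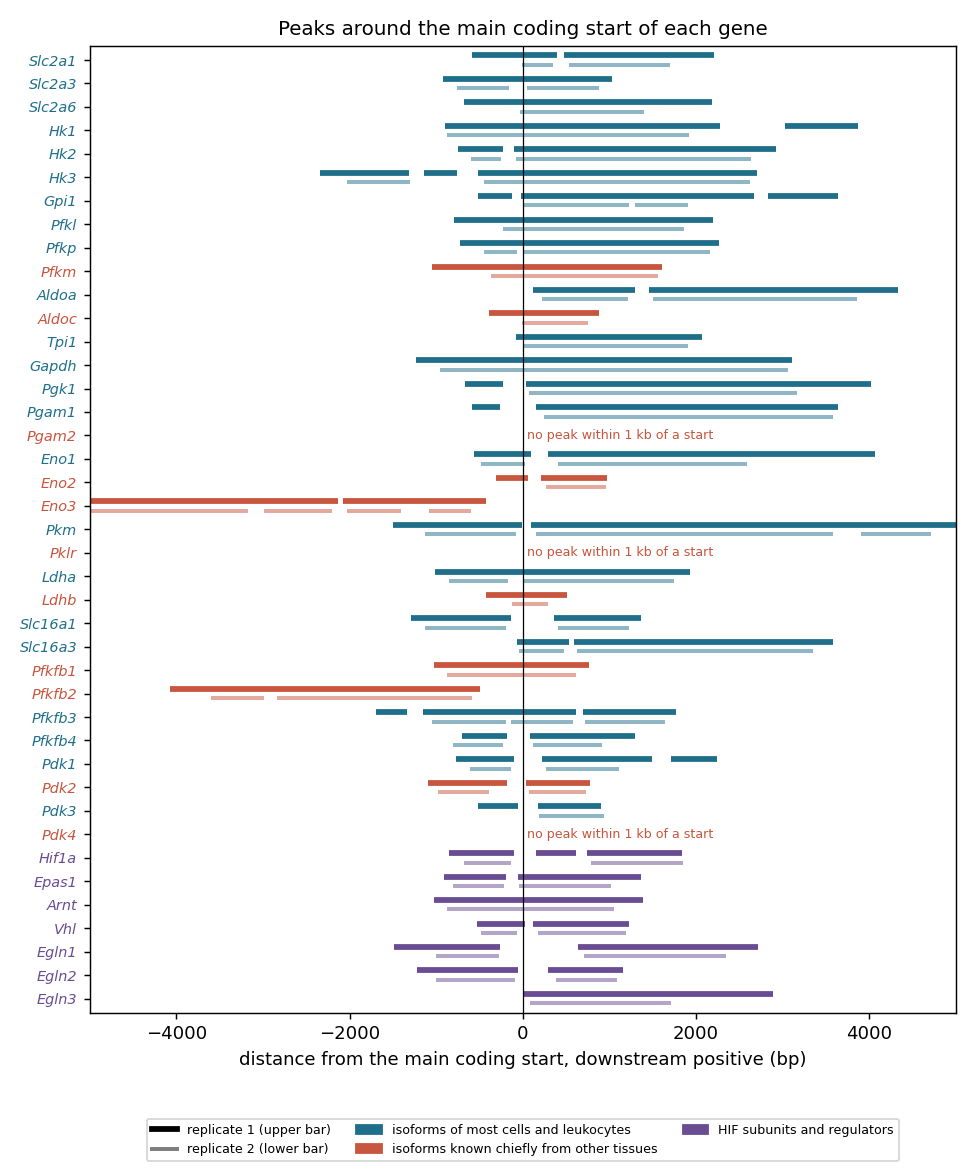
Peaks (bars) within 5 kb of the main coding start of each gene (x axis, bp, downstream positive), replicate 1 above replicate 2, coloured by class. Pkm runs past the right edge in replicate 1, and the bars of Eno3 and Pfkfb2 lie wholly upstream of their main coding starts. Other starts of Pfkfb2, some of them coding, lie inside its peaks, whereas no Eno3 start does.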

How the data were processed

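H3K4me3 peaks of 2 biological replicates of unstimulated macrophages were analysed. The authors called peaks, per the provenance texts that accompany the deposited lists, on each replicate's alignments, on both together (pooled) and as a replicated list, in mm10. The sources used here do not give the aligner, the caller, their versions or thresholds. Each peak carries the authors' fold, a ratio whose reference is not stated, and a deposited −log10 p and −log10 q. The display score that the authors deposited was not used. The fold was used only to rank peaks within a list, and −log10 p only to pick the strongest 15000 peaks. No counts were used, so no precision from depth can be given.

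A protein-coding gene was marked when a peak overlapped by at least 1 bp the 1000 bp either side of any GENCODE M21 start, on 21 chromosomes. In GRCm38.p6, which is mm10, 0 peak ends lay beyond a chromosome. Peaks within 1000 bp were joined, widths were averaged over replicates, and the mean of 2 is given with its SD. Python 3.11.15, numpy 2.4.6 and matplotlib 3.10.9 were used, and the overlap and joining steps were tested on simulated data. Of gene models with the same symbol, the one with more transcripts was taken. Columns of other samples numbered 0.

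The members and lists were chosen with earlier results of these data known. Named in full are the 5 widest marked members, the 5 of highest mean percentile and every unmarked member, and from each list the 3 widest genes, up to 3 marked in 1 replicate and up to 3 unmarked. Isoforms outside the 41 were named after their values were seen. Some genes of the lists and 1 marker list are not reported here. No test was run: there is 1 group. Alternatives were other windows, joining distances, overlaps, starts and lists, and each replicate alone.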

Additional observations from a re-analysis of the deposited data

How the results depend on the processing

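The count of 38 marked members was 37 with a 500 bp window, where Eno3 was lost, and with the strongest 15000 peaks of each list, where Ldhb was lost. It was 34 with only the 5′ end of each gene, where Hk1, Ldha, Pfkfb2 and Hif1a were lost, and 33 without genes whose window holds another coding start. It stayed at 38 with a 2500 bp window, with coding starts only, with an overlap of 200 bp, in the authors' deposited pooled and replicated lists and in each replicate alone. The 23 isoforms of most cells fell to 21 with the 5′ end only. Counts for the other lists stayed within 1.5 times of the reported ones, except that isoforms of other tissues outside the 41 numbered 1 to 2 without replicate 1 or without replicate 2, the added gene being Slc2a4. HIF target genes numbered 18 to 21 in the same settings. The median width of marked members ranged from 1991.8 bp without joining, against 1473.5 bp for all marked genes, to 2917 bp in replicate 1 alone. The value without joining lay within the SD of 584.1 bp between replicates. A single replicate lies within that SD by construction, so this says nothing of its stability. The median percentile was 50.5 to 51.0 in single replicates and 43.5 in the authors' deposited pooled list. The cause was not tested. Without joining, 14 members were narrower by over 1.5 times, Eno3 with 1073 bp among them. Joined within 3000 bp, 5 were wider by as much, including Tpi1 at 9725.5 bp. The 33 members with a response element core became 37 within 500 bp of the 5′ end and, in settings added after seeing the data, 22 with ACGTG alone and 44 of 60 when entries were counted. No paired analysis was possible because there is 1 group. Depth is unknown, and with 2 replicates each SD rests on a single difference.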
